A study of Mus musculus with 24 samples.

Results

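The genes described here were 8 regulators of developmental timing in early progenitors: the RNA-binding proteins *Lin28a* and *Lin28b*, the RNA-binding ubiquitin ligase *Trim71*, the chromatin proteins *Hmga2* and *Hmga1*, and the mRNA-binding proteins *Igf2bp1*, *Igf2bp2* and *Igf2bp3*. They were taken by symbol from a table of 54658 genes, in which all 8 had a row, and read in each of 24 mouse RNA-seq libraries. The study asked how loss of *Cep135*, a centriole gene mutated in human primary microcephaly, affects the developing cortex. The control embryos were *Cep135*+/+ and the mutant embryos *Cep135*-/-, which carry a small *Cep135* deletion, made by genome editing of zygotes, in every cell of the body on a C57BL/6J background. Cortices, meaning the dorsal telencephalon, came from 3 mutants and 3 controls at E11.5 and from 3 mutants and 3 controls at E14.5. Cells of the same 6 E14.5 embryos were dissociated and cultured for 12 h or 24 h with growth factors as incipient neurospheres, which gave 3 mutant and 3 control cultures at each time. Mutants were named A, B and C at E11.5 and 1, 2 and 6 at E14.5, controls D, E and F at E11.5 and 3, 4 and 5 at E14.5, and values below are listed in that order.

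LIN28A and LIN28B are the classical heterochronic regulators of young progenitors: they bind precursors of the let-7 microRNAs and keep them from maturing. Mature let-7 in turn lowers mRNAs that carry its seed match, among them *Lin28a*, *Lin28b*, *Trim71*, *Hmga2* and the *Igf2bp* genes, so high LIN28 and high let-7 mark opposite ends of development. In the forebrain, HMGA2 is known for sustaining self-renewal of fetal neural stem cells and for its decline with age.

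The let-7 seeds and their matches are shown first because each of the 8 genes holds at least 1 match. Most of the 8 are the known let-7 targets named above, so matches in them were likely beforehand and are a description. Of 11 mature mouse let-7 family sequences in the RefSeq table (GRCm38.p6), 10 shared the seed GAGGUAG and let-7j had GAGGUAU. Mature let-7 itself was not measured by these polyA-primed libraries. Below are 5 family members, with bases 2 to 8, the seed, in capitals.
let-7a-5p: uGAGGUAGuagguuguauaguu
let-7b-5p: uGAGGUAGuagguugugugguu
let-7d-5p: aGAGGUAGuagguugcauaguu
let-7i-5p: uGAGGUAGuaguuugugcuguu
miR-98-5p: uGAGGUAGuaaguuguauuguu

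The match to this seed is the 7-base motif CTACCTC, and the 8-base motif CTACCTCA contains it. Both were searched on the sense strand only, in the longest annotated 3′ UTR of each gene. All 8 genes held at least 1 7-base match, with 21 matches in total, and 7 of the 8 held the 8-base form, at 13 sites. Among 21037 mouse genes with a 3′ UTR, 9.02% held a 7-base match, 3.06% an 8-base match and 0.152% at least 3 7-base matches. The site nearest the stop codon is printed for each gene, 5′ to 3′ on the strand of the gene, with the match in capitals and the GRCm38 position and strand after its name.
*Lin28a* (chr4:134005187-134005208, minus strand): cagcctgttgaaCTACCTCAtt
*Lin28b* (chr10:45381020-45381041, minus strand): cgggcgggaagtCTACCTCAtg
*Hmga2* (chr10:120364222-120364243, minus strand): gacattcaatttCTACCTCAgc
*Trim71* (chr9:114512470-114512491, minus strand): attgcctaagtcCTACCTCAgc
*Igf2bp1* (chr11:95961776-95961797, minus strand): gtgcgaagtaaaCTACCTCAag
*Igf2bp2* (chr16:22059471-22059492, minus strand): cacaaataaaagCTACCTCAgg
*Igf2bp3* (chr6:49086785-49086806, minus strand): atttttactcaaCTACCTCAgg
*Hmga1* (chr17:27563280-27563300, plus strand): tctgttcacaaaCTACCTCtg

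*Lin28b*, *Hmga2*, *Igf2bp1* and *Trim71* each held 4 matches, *Lin28a* held 2, and *Igf2bp2*, *Igf2bp3* and *Hmga1* held 1 each. In *Trim71* all 4 were of the 8-base form, in *Igf2bp1* 3 of 4, and in *Hmga2* and *Lin28b* only the site nearest the stop codon, 58 and 36 bases downstream of it. Long 3′ UTRs hold more matches, so each gene was set beside genes whose 3′ UTR was 0.8 to 1.25 times as long. Each set included the gene itself and any others of the 8 in that length range, so the shares below are partly their own. The sets were small for long UTRs, with 605 genes for *Igf2bp1* and 835 for *Trim71*. At least 4 matches were found in 0.123% of the genes with a UTR like that of *Hmga2* (3014 bases), in 0.295% for *Lin28b* (4445 bases), in 0.331% for *Igf2bp1* (6337 bases) and in 0.479% for *Trim71* (5512 bases). By contrast, a single match was common at the UTR length of *Hmga1* (8.23% of genes), *Igf2bp2* (12.1%) and *Igf2bp3* (13.3%).

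**Figure D1:**
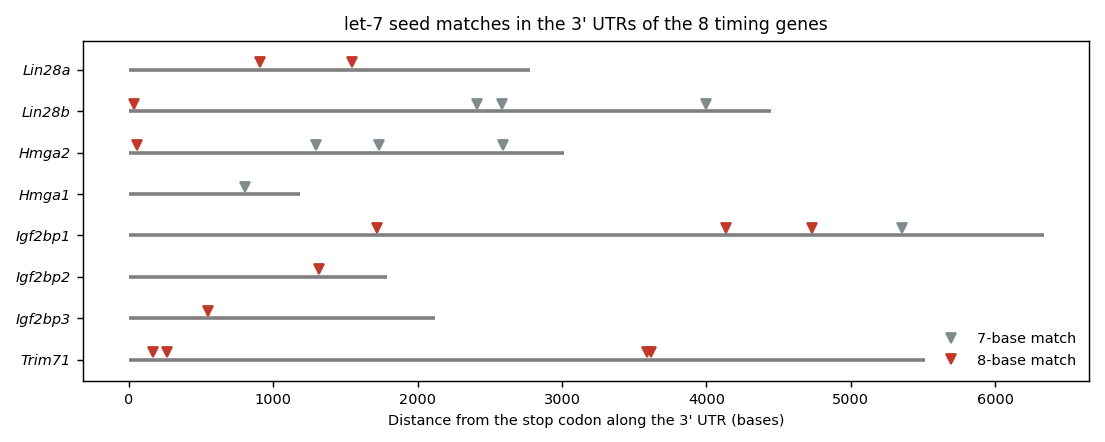
Each grey line is the longest annotated 3′ UTR of 1 gene, drawn to scale in bases from the stop codon, and triangles mark let-7 seed matches (red, 8-base; grey, 7-base only). *Lin28b*, *Hmga2*, *Igf2bp1* and *Trim71* carry 4 matches each, and the first match of *Lin28b* and *Hmga2* lies 36 and 58 bases after the stop codon.

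Values are normalized read counts: reads assigned to a gene divided by 1 size factor per library. The libraries held 4732781 to 11645213 reads on genes. They read only the 3′ ends of transcripts, so a level is compared between samples of 1 gene and not between genes. *Cep135* itself was read at 246 to 336 in E11.5 mutants and 293 to 375 in E11.5 controls, and 3′ end reads lie outside the small deletion, so its level does not check the genotype labels. The sample titles open with a code that all 6 E14.5 embryos shared and that differed at E11.5, where A and D carried 1 code and B, C, E and F another, so age and this code cannot be told apart. The descriptions and data columns of mutants B and C give them a further code that no control carried, and by that spelling only A and D shared a code across genotypes at E11.5. By *Xist* and Y-linked transcripts, all 3 E14.5 controls were male while mutants 1 and 2 were female and mutant 6 was male. At 24 h the mutant libraries also held more reads than the control libraries (7903426 to 11645213 against 4732781 to 5709443) and a larger share of reads on the ribosomal-RNA-like gene *Gm42418* (20.5% to 23.0% against 6.26% to 13.9%). In such bulk samples, fewer cells of a type and less RNA per cell cannot be told apart.

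All 8 genes were lower at E14.5 than at E11.5, each without overlap between the 6 libraries of either age. *Hmga2* fell 22.6-fold, *Trim71* 15.0-fold and *Lin28a* 13.4-fold, while *Igf2bp1*, *Lin28b*, *Hmga1*, *Igf2bp3* and *Igf2bp2* fell between 2.32-fold and 4.21-fold. Folds are from limma on log2(normalized read count + 1), with the genotype in the fit, and understate the change of genes with few reads. At an adjusted p (Benjamini-Hochberg) under 0.05, 53.1% of the 13650 genes tested were called in either direction and 29.3% were called lower. For 14.9% the E14.5 libraries all lay below the E11.5 ones, against 8 of 8 here. *Lin28a* and *Trim71* passed the filter, a mean normalized read count of 10, only through their E11.5 level. Their E14.5 means were 1.64 and 2.69, so a fall was built into their passing. The 8 genes were also chosen with earlier results of these data known. Their count and median here are a description and not independent support. The median log2 fold change of the 8 genes was −1.93, beside −0.08 for all genes tested. An exact two-sided permutation test within genotype gave p = 0.005 for each gene, the smallest it allows with these 12 cortices.

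**Figure D2:**
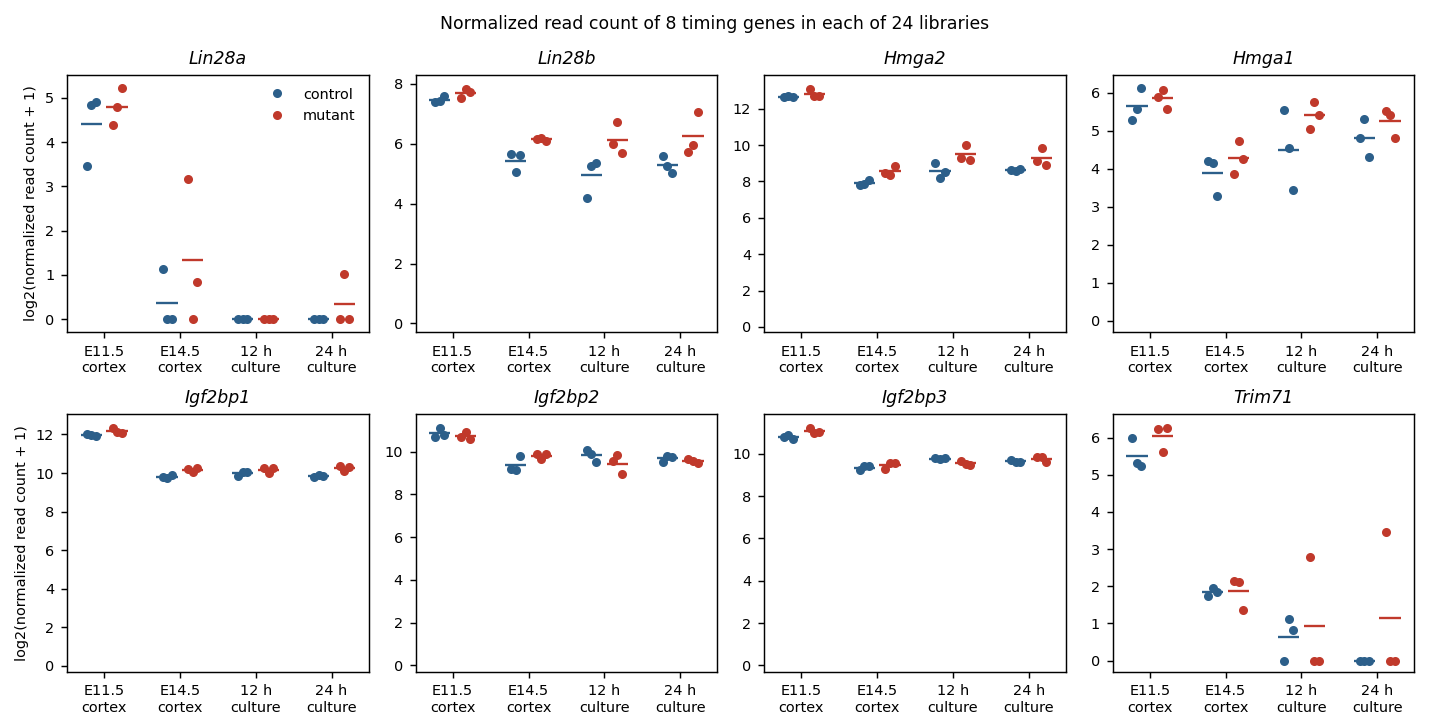
Each point is 1 library (3 per group; blue, control; red, mutant), the y axis is log2(normalized read count + 1), and the short lines are group means. The E11.5 mean is the highest for every gene, with 12 h and 24 h libraries of *Hmga1* reaching into the E11.5 range, and *Lin28a* and *Trim71* do not exceed 7.90 and 10.03 normalized reads in any later library.

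*Lin28a* (ENSMUSG00000050966, chr4:134003330-134018841, minus strand), the founding blocker of let-7 maturation, was a low-level transcript of the E11.5 cortex. It was read at 19.997, 26.8 and 36.1 in E11.5 mutants and at 10.1, 27.6 and 28.8 in E11.5 controls. In E14.5 cortex the mutants gave 7.90, 0 and 0.783 and the controls 1.18, 0 and 0. All 6 cultures at 12 h had no read, which allows up to 3 reads over the 6 libraries, and the 24 h cultures had 1 read between them, in mutant 2. With age the log2 fold change was −3.75 ± 0.52 (SE, adjusted p = 1.69e-05). The E14.5 level rested on 9 reads in all, 7 of them in mutant 1, so changes after E11.5 were not measurable at this depth.

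*Lin28b* (ENSMUSG00000063804, chr10:45376620-45486395, minus strand), the paralogue with the same role, kept a measurable level throughout. The E11.5 mutants gave 182, 229 and 213 and the controls 167, 170 and 191. At E14.5 the mutants gave 70.0, 72.9 and 66.6 and the controls 49.4, 31.9 and 47.9. The mean over both genotypes went from 192 ± 24.5 (SD, n = 6) to 56.5 ± 16.0, a log2 fold change of −1.79 ± 0.14 (SE, adjusted p = 2.69e-08). The groups overlapped at E11.5, while at E14.5 every mutant lay above every control.

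*Trim71* (ENSMUSG00000079259, chr9:114507133-114564369, minus strand), the ubiquitin ligase known as LIN41 that is itself a classical let-7 target, was nearly gone by E14.5. Its E11.5 values were 74.2, 48.0 and 75.7 in mutants and 62.5, 38.5 and 36.5 in controls. By E14.5 mutants were at 3.39, 3.31 and 1.57 and controls at 2.35, 2.90 and 2.62. The log2 fold change was −3.91 ± 0.27 (SE, adjusted p = 7.27e-09). In culture its reads were too few for a test, with 5 of the 6 libraries at 24 h and 3 of the 6 at 12 h at 0.

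*Hmga2* (ENSMUSG00000056758, chr10:120361275-120476469, minus strand), an AT-hook protein that shapes chromatin in stem cells, had the smallest p of all 13650 genes in the age comparison. At E11.5 it was read at 8732, 6565 and 6525 in mutants and 6296, 6581 and 6339 in controls. At E14.5 it was read at 356, 323 and 456 in mutants and 225, 230 and 267 in controls. The lowest E11.5 cortex, at 6296, lay far above the highest E14.5 cortex, at 456. The log2 fold change was −4.50 ± 0.11 (SE, adjusted p = 2.78e-13), with −4.73 in controls (26.6-fold) and −4.26 in mutants (19.2-fold).

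*Hmga1* (ENSMUSG00000046711, chr17:27556497-27563674, plus strand), the related AT-hook protein, was read at 38.3 to 68.4 in E11.5 cortices and 8.72 to 25.4 at E14.5. Its log2 fold change with age was −1.68 ± 0.23 (SE, adjusted p = 1.31e-05). A near-identical copy, *Hmga1b*, had its own row at 0 to 17.1, and how reads shared by the copies were counted was not examined, so the level of *Hmga1* is uncertain.

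The IGF2BP proteins bind and stabilise mRNAs in early development and include other known targets of let-7. *Igf2bp1* (ENSMUSG00000013415, chr11:95957163-96005940, minus strand) was read at 5145, 4455 and 4255 in E11.5 mutants and 4097, 4001 and 3847 in E11.5 controls. Its E14.5 values were 1172, 1057 and 1216 in mutants and 886, 847 and 969 in controls. Mutants lay above controls without overlap at both ages. The log2 fold change with age was −2.07 ± 0.08 (SE, adjusted p = 1.04e-11).

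*Igf2bp3* (ENSMUSG00000029814, chr6:49085223-49214957, minus strand) went from 2371, 2029 and 2112 in E11.5 mutants and 1790, 1886 and 1654 in E11.5 controls to 626, 758 and 760 in E14.5 mutants and 591, 676 and 687 in E14.5 controls. *Igf2bp2* (ENSMUSG00000033581, chr16:22059009-22163299, minus strand) went from 1646, 1971 and 1562 in mutants and 1633, 2209 and 1774 in controls to 938, 797 and 953 in mutants and 578, 570 and 888 in controls. These 2 genes had the smallest falls of the 8, with log2 fold changes of −1.53 ± 0.08 (SE, adjusted p = 5.49e-10) for *Igf2bp3* and −1.21 ± 0.14 (SE, adjusted p = 1.65e-06) for *Igf2bp2*.

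Summed levels of cell type markers also shifted with age. The summed level of 9 apical progenitor markers was 15342 to 19192 at E11.5 and 9091 to 11471 at E14.5, and that of 8 neuron markers was 7155 to 10554 at E11.5 and 29664.5 to 40981 at E14.5. The markers of mesenchyme and meninges summed to 1986 to 7965 at E11.5 and 1560 to 2604 at E14.5. The part of these shifts in the age differences was not tested.

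**Figure D3:**
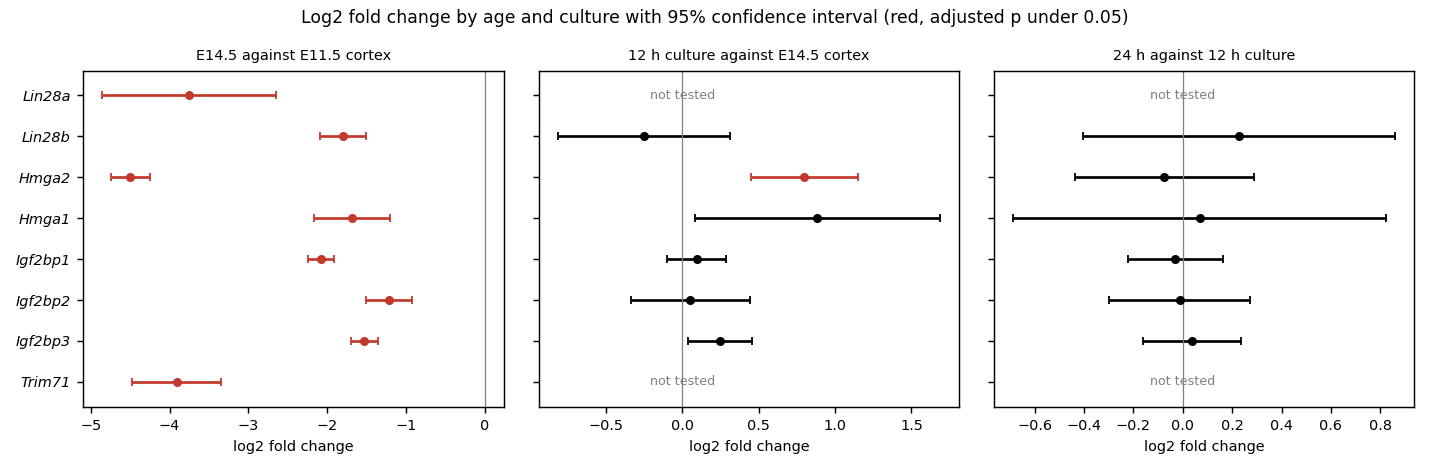
Points are log2 fold changes of the 8 genes by age (left), by 12 h of culture (middle) and between 24 h and 12 h (right), with 95% confidence intervals, in red where the adjusted p is under 0.05. All 8 genes are red on the left, *Hmga2* at 0.80 is the only red point in the middle, and no point is red on the right.

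*Lin28a* and *Trim71* had too few reads for a test between 12 h cultures and E14.5 cortex. Of the 6 genes tested, only *Hmga2* was called, and it was higher in culture. After 12 h it was read at 627, 1019 and 582 in mutants and 511, 291 and 365 in controls, higher than the cortex of the same embryo in 6 of 6 embryos. The log2 fold change was 0.80 (95% confidence interval 0.45 to 1.15, adjusted p = 0.00186 by limma), and the exact paired permutation test gave 0.03125, the smallest it allows. With a mean of 566 ± 256 (SD, n = 6) it stayed far below the E11.5 mean of 6840 ± 935. Among 13601 genes, 30.2% were called in either direction and 14.1% higher.

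Of the other 5 genes tested, *Hmga1* was also higher in 6 of 6 embryos (log2 fold change 0.88). The exact paired permutation test gave it 0.03125 as well, but its adjusted p by limma was 0.0883. *Igf2bp3* differed by 0.25 (adjusted p = 0.0724). The intervals of the log2 fold change were −0.10 to 0.29 for *Igf2bp1*, −0.34 to 0.44 for *Igf2bp2* and −0.82 to 0.31 for *Lin28b*. Markers of other cells moved with culture too: the sum for mesenchyme and meninges went from 1560 to 2604 in cortex to between 119 and 276, for endothelium from 793 to 933 to between 24.3 and 102, and for microglia from 379 to 892 to between 6.31 and 40.9, while erythroid markers went from 38189 to 45291 to between 69364 and 152904. Their part in the *Hmga2* difference was not tested.

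Between 12 h and 24 h none of the 6 genes tested was called by limma, edgeR or DESeq2, and none had an unadjusted p under 0.05, beside 0.292% of 13359 genes called and 9.64% under an unadjusted p of 0.05. *Hmga2* gave 562, 903 and 484 in mutants and 388, 374 and 416 in controls at 24 h, with a confidence interval for the log2 fold change over 12 h of −0.44 to 0.29. For *Lin28b* the interval was −0.40 to 0.86 and for *Igf2bp1* −0.22 to 0.16. *Igf2bp1* and *Igf2bp3* were higher at 24 h than at 12 h in 3 of 3 mutants and lower in 3 of 3 controls, beside 0.913% of the 13359 genes, with 1.15% the other way round. Over the 4 conditions, E11.5 cortex was the highest for each gene and did not overlap the next condition, except for *Hmga1*, whose cultures reached into the E11.5 range. Neighbours among the other 3 conditions overlapped for every gene.

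For genotype, the mutant mean was above the control mean in all 4 conditions for *Hmga2*, *Lin28b*, *Igf2bp1* and *Hmga1*, and for *Trim71* with few reads after E11.5, but no gene of the 8 passed the adjusted threshold by limma in any condition. The shares of all genes called were 0.0149% at E11.5, 0.0736% at E14.5, 0 at 12 h and 0.271% at 24 h. An unadjusted p under 0.05 was reached by 1 of the 8 genes at E11.5 (*Igf2bp3*), beside 7.39% of all genes, and by 4 of the 6 genes tested at E14.5 (*Hmga2*, *Lin28b*, *Igf2bp1* and *Igf2bp2*), beside 9.10%. In the cultures it was reached by 2 of 6 at 12 h (*Hmga2* and *Lin28b*), beside 4.85%, and by 3 of 6 at 24 h (the same and *Igf2bp1*), beside 10.6%. In the 12 h cultures, where limma called no gene, edgeR called 0 and DESeq2 called 9.

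At E11.5, *Igf2bp1* and *Igf2bp3* were the 2 of 8 genes whose mutants lay above the controls without overlap, beside 7.16% of all genes. The log2 fold change was 0.21 (adjusted p = 0.681) for *Igf2bp1* and 0.29 (adjusted p = 0.614) for *Igf2bp3*. Between A and D, *Igf2bp1* was at 5145 and 4097 and *Igf2bp3* at 2371 and 1790. *Hmga2* differed by 0.17, with an interval of −0.11 to 0.45. Marker sums that separated at E11.5 were those of endothelium (1086 to 1218 in mutants, 945 to 1041 in controls) and liver (79.2 to 733 and 49.7 to 51.4). With overlapping sums, 8 of 8 neuron markers (median log2 fold change −0.37) and 9 of 9 apical progenitor markers (−0.10) were below 0 and 7 of 7 mesenchymal markers (0.47) above it, none of them called. Their part in these differences was not tested.

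At E14.5, *Hmga2*, *Lin28b* and *Igf2bp1*, 3 of the 6 genes tested, were higher in mutants without overlap, beside 7.02% of all genes. *Hmga2* differed by 0.64 on the log2 scale (95% confidence interval 0.28 to 0.997, adjusted p = 0.331), *Lin28b* by 0.71 (0.20 to 1.22, adjusted p = 0.461) and *Igf2bp1* by 0.35 (adjusted p = 0.498). *Igf2bp2* differed by 0.43 (adjusted p = 0.514) with overlap, since control 5 at 888 lay among the mutants. Neuron markers summed to 29664.5 to 32072 in mutants and 39061.5 to 40981 in controls, apical progenitor markers to 10078 to 11471 and 9091 to 10294, and microglia markers to 724 to 892 and 379 to 443. By limma, 1 of 8 neuron markers was called lower in mutants and 1 of 5 microglia markers higher. Their part in these differences was not tested.

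The same 6 embryos gave the cultures. At 12 h *Lin28b* was read at 62.4, 104 and 51.1 in mutants and 17.3, 37.6 and 40.2 in controls, a log2 fold change of 1.19 (95% confidence interval 0.15 to 2.23, adjusted p = 0.913). *Hmga2* differed by 0.92 (0.37 to 1.47, adjusted p = 0.913). These 2 of 6 genes were higher without overlap, beside 5.09% of all genes, and *Igf2bp3* was lower without overlap, beside 5.94%, at 807, 727 and 709 in mutants and 876, 861 and 879 in controls (log2 fold change −0.22). With embryo sex in the fit *Lin28b* differed by 0.76, a value that sets mutant 6, the only male mutant, against the male controls. The intermediate progenitor sum at 12 h was 1892 to 2191 in mutants and 1594 to 1791 in controls, that of endothelium 70.5 to 102 and 24.3 to 50.3, and that of microglia 6.31 to 14.6 and 18.8 to 40.9. With overlapping sums, 9 of 9 apical progenitor markers were above 0 and 8 of 8 erythroid markers below it (median log2 fold change −0.50). Their part in these differences was not tested.

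At 24 h *Lin28b* was read at 52.3, 60.7 and 132 in mutants and 47.8, 37.1 and 31.3 in controls, a log2 fold change of 0.96 (0.18 to 1.73, adjusted p = 0.349). Without mutant 6 it was 0.55. *Hmga2* differed by 0.67 (0.25 to 1.09, adjusted p = 0.194), and by 0.41 without mutant 2. *Igf2bp1*, at 1311, 1096 and 1262 in mutants and 893, 939 and 934 in controls, differed by 0.40 (adjusted p = 0.224). These 3 of 6 genes were higher without overlap, beside 7.15% of all genes. DESeq2 on the whole reads gave *Hmga2* an adjusted p of 0.0420. With embryo sex in the fit, the limma log2 fold change at 24 h was 0.30 for *Hmga2* and 1.76 for *Lin28b*. Mutants 1 and 2 were the only females, so these sex-term values set mutant 6 alone against the male controls. Neuron markers summed to 25898 to 31709 in mutants and 32576 to 40221 in controls, apical progenitor markers summed to 12244.5 to 13491 and 9471 to 11058, and intermediate progenitor markers to 1574 to 1814 and 1312 to 1555. The sum for mesenchyme and meninges was 242 to 292 in mutants and 150.2 to 184 in controls, and that for liver 91.7 to 299 and 11.3 to 27.0. By limma, 1 of 8 neuron markers was called lower in mutants and 1 of the 4 liver markers tested higher. The part of these markers was not tested.

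**Figure D4:**
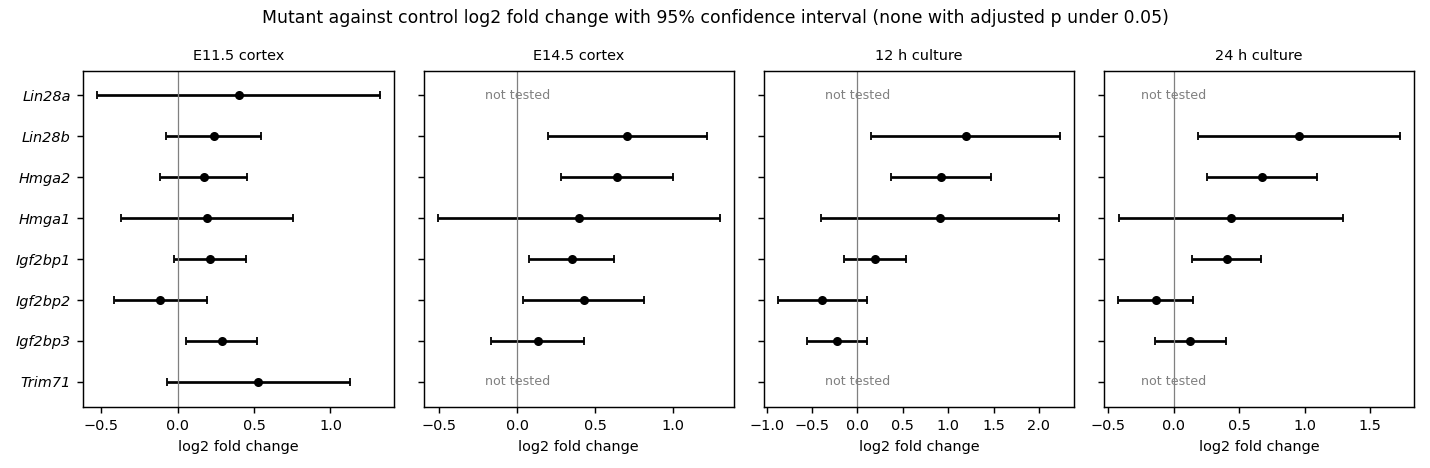
Points are mutant against control log2 fold changes (3 libraries per genotype) with 95% confidence intervals in E11.5 cortex, E14.5 cortex, 12 h and 24 h cultures. *Hmga2* and *Lin28b* have intervals above 0 in the 3 conditions from the E14.5 embryos, but no adjusted p is under 0.05.

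*Hmga2* and *Lin28b* were each higher in mutants without overlap in E14.5 cortex, at 12 h and at 24 h, a pattern that 32 of 13547 genes (0.236%) showed, with 0.317% lower in each. The 3 conditions are repeated samples of the same 6 embryos and do not count as separate support. *Igf2bp1* was higher without overlap at both cortical ages, which held for 0.813% of genes. Over the 12 cortices with age in the fit, the 8 log2 fold changes were all positive, and limma called 0 of the 8, beside 0.139% of all genes, while 4 of the 8 had an unadjusted p under 0.05, beside 8.71%. The exact permutation test within age, unadjusted, gave 0.005 for *Igf2bp1* (log2 fold change 0.28, adjusted p = 0.251), 0.01 for *Lin28b* (0.47, adjusted p = 0.310) and 0.015 for *Hmga2* (0.41, adjusted p = 0.295). Within 1 condition of 3 against 3 that test cannot go below 0.1.

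No change of the genotype difference with age or culture was called by limma for any gene. edgeR and DESeq2 called 0 of the 8 as well, and 1 and 27 of all genes for the change with age, 1 and 5 from cortex to 12 h and 0 and 0 from 12 h to 24 h, while by limma an unadjusted p under 0.05 was found in 7.84% of genes for the change with age, 5.32% for that from cortex to 12 h and 2.38% for that from 12 h to 24 h. For *Hmga2* the mutant excess was 0.47 larger at E14.5 than at E11.5 on the log2 scale (unadjusted p = 0.0340, adjusted p = 0.620 by limma). It was also 0.47 larger for *Lin28b* (adjusted p = 0.640) and 0.54 larger for *Igf2bp2* (unadjusted p = 0.0395, adjusted p = 0.620). From cortex to 12 h that of *Igf2bp2* changed by −0.81 (unadjusted p = 0.0209, adjusted p = 0.793). The unadjusted p was thus under 0.05 for 2 of 8 genes with age, 1 of 6 from cortex to 12 h and 0 of 6 from 12 h to 24 h.

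Other genes of the pathway were read from lists and set beside the 8. For the age counts of each list below, 29.3% of all genes tested were called lower and 23.8% higher. Among 17 genes that process or silence with let-7, 2 were higher, 10 lower and 5 not called at E14.5 against E11.5, with a median log2 fold change of −0.32 beside −0.08 for all genes. The lower genes by smallest p were the Argonaute *Ago2* (−0.76), the let-7 precursor binders *Khsrp* (−0.66) and *Hnrnpa1* (−0.38), and *Tut4* (−0.37), the uridylase that works with LIN28A. *Ago4* (1.36) and the uridylase *Tut7* (0.28) were higher. *Mir99ahg*, a long transcript that hosts a let-7 precursor, was higher by 0.96 (adjusted p = 0.000137). The other listed let-7 loci gave no value: 2 hosts were not matched by symbol, and 6 rows were hairpin genes, which polyA-primed libraries do not read.

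Of 18 other let-7 targets tested, 14 were lower, 3 higher and 1, *Mycn* (−0.28), was not called, with a median of −0.85. Of the 19 genes listed as such targets, only 11 held a 7-base match in the longest 3′ UTR, and 7 held the 8-base form. The cell-cycle genes *Ccnd1* (−2.91), *Rrm2* (−2.05) and *Cdc25a* (−0.91) and the transcription factor *Arid3b* (−1.50) were lower. Among the higher genes were *Ccnd2* (0.48) and *Cdk6* (0.41), which drive the cell cycle. This list holds proliferation genes, and apical progenitor markers were lower at E14.5 as well.

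The list of the insulin-like growth factor axis held *Igf2*, which the *Igf2bp* family is named for, *H19*, and genes of receptors, adaptors and binding proteins. Its genes were mostly lower too, with 6 of 9 lower, 1 higher and 2 not called (median −0.67). *H19* (−1.59), *Igfbp5* (−1.44), *Igfbp2* (−1.12) and *Igf2r* (−0.67) were lower and the insulin receptor *Insr* (0.45) was higher. In the opposite direction, 9 of 10 genes of late progenitors were higher (median 1.86), while *Sox9* (−0.66) was lower. Among the higher were *Aldoc* (4.76) and the nuclear factor I genes *Nfix* (3.57), *Nfib* (2.85) and *Nfia* (2.10). In the same comparison 8 of 8 neuron markers were called higher (median 2.13). Their part in the rise of the late progenitor genes was not tested. Of the genes that HMGA2 is known to lower, only *Junb* had enough reads, with 0.77 by age (adjusted p = 0.0696) and 2.30 after 12 h of culture (adjusted p = 7.26e-05).

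**Figure D5:**
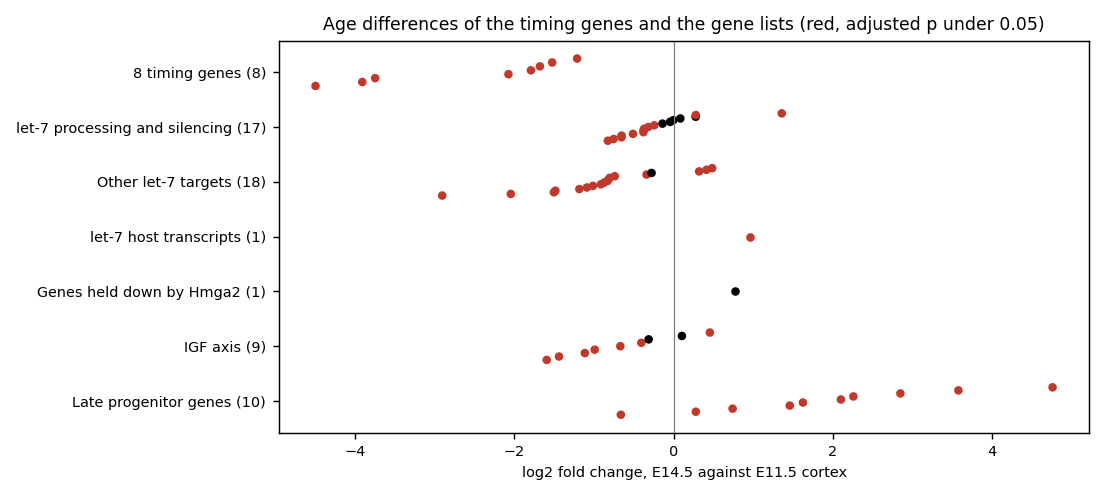
Each point is the log2 fold change of 1 gene in E14.5 against E11.5 cortex, for the 8 timing genes and each list, with the number of genes tested in brackets and red for an adjusted p under 0.05. The 8 timing genes are all below 0 and 9 of 10 late progenitor genes are above 0.

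In culture these lists were mixed. After 12 h, 5 let-7 processing genes were higher and 2 lower, and 5 other targets were higher and 4 lower. In the insulin-like growth factor axis 2 genes were higher and 2 lower, and 6 late progenitor genes were lower and 0 higher. Over all genes tested, 14.1% were called higher and 16.1% lower. By genotype, 2 list genes were called, each a late progenitor factor lower in mutants, beside 0.271% of all genes at 24 h and 0.139% over the 12 cortices. Of the 10 late progenitor genes, 5 were above 0 and 5 below at 24 h (median log2 fold change 0.09). Over the 12 cortices 1 was above 0 and 9 below (median −0.16). *Nfix* was at 2011, 2263 and 2222 in mutants and 3831, 3318 and 3728 in controls at 24 h, a log2 fold change of −0.74 (adjusted p = 0.0150 by limma). *Nfib* differed by −0.43 over the 12 cortices (adjusted p = 0.0271), at 8928, 8132 and 9667 in E14.5 mutants and 12022, 13352 and 12911 in E14.5 controls. In the same fits 8 of 8 neuron markers were below 0 (median −0.34 at 24 h and −0.35 over the 12 cortices). Their part in the differences of *Nfix* and *Nfib* was not tested.

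Over all genes, a let-7 match was set beside the age difference. Of 1332 tested genes with at least 1 7-base match, the 8 genes left out, 32.7% were lower at E14.5 with a median log2 fold change of −0.07. Of 10890 genes without a match, 30.8% were lower with a median of −0.09. With an 8-base match, the 8 genes included where they had one, 38.8% of 472 genes were lower (median −0.13). The differences between these shares were not tested. The genes with a 7-base match had longer 3′ UTRs (median 2549 bases against 1184).

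Across the 24 libraries, the genes whose log2 level was most like that of *Hmga2* were *Mest* (Pearson r 0.966), *Igf2bp1* (0.966), *Ranbp1* (0.965), *Mtap* (0.959) and *Igf2bp3* (0.956). For *Lin28b* they were *Cenpw* (0.910), *Pop4* (0.901), *Gm10110* (0.898), *Rmst* (0.898) and *Trap1* (0.892). For *Lin28a* they were *Ldha* (0.931), *Nectin3* (0.927), *Pkm* (0.926), *Kpnb1* (0.926) and *Igf2bp1* (0.920). These correlations are a description: they rest on the gap between the 6 E11.5 libraries and the 18 from E14.5 embryos. Within those 18 libraries, which share 6 embryos, the r of *Hmga2* was 0.722 with *Hmga1*, 0.471 with *Igf2bp1*, 0.466 with *Igf2bp3*, 0.356 with *Lin28b* and 0.158 with *Igf2bp2*.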

How the data were processed

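QuantSeq 3′ libraries of mouse embryonic cortex and cortical cultures were read in 24 samples. The authors removed adapters and polyA stretches, aligned reads to GRCm38 with TopHat2 (2.0.10), using SAMtools (0.1.19) and Bowtie (1.0.0), and counted them by strand per gene in HTSeq 0.6.1 on GENCODE gene models. The deposited signal values are these counts divided by 1 size factor per library (0.593 to 1.55), equal to DESeq2 median-of-ratios factors. Multiplied back, 100% of the 484666 values above 0 were whole within 0.01. The value of 1 read in E11.5 control D was too close to 1 to tell whole reads from rounding, so D was left out of count tests.

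Groups came from the sample labels. The cortex of mutant 6 is called E11.5 in its description and E14.5 in its title and source, and was taken as E14.5. Log2(value + 1) was fitted with limma 3.58.1 (R 4.3.3), with a mean-variance trend, after genes averaging under 10 across the compared libraries were dropped; p-values were adjusted by Benjamini-Hochberg over all genes left, at a threshold of 0.05. Genotype was fitted within each condition and over the 12 cortices, and age and culture with genotype in the fit. Alternatives were a threshold of 0.1, adding 0.1 or 5 before the log, dropping no genes or those averaging under 50, quantile normalization, 1 fit over 24 libraries, edgeR 4.0.16 and DESeq2 1.42.0 on whole reads, terms for embryo sex, the code in the title or *Gm42418* share, an embryo block, and each library left out. On whole reads edgeR called 9 and DESeq2 64 genes for genotype at E14.5, and 40 and 182 at 24 h. The script was checked on simulated data.

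The labels tie cortex, 12 h and 24 h libraries to 1 embryo, so the block pairs them. Deviations from group means correlated at −0.114 to 0.235 over the 18 same-embryo pairs (median 0.137). Embryos are separate animals, and p-values of the genotype and age comparisons cover the spread between them. The main fits across cortex and cultures took libraries of the same embryo as independent, and the embryo block was an alternative. No libraries were identical.

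Gene positions and 3′ UTRs are from GENCODE models of GRCm38 and mature microRNAs from RefSeq. All 8 timing genes are named, with up to 4 called genes per list and direction by smallest p in the age comparison and the 5 genes most like *Lin28a*, *Lin28b* and *Hmga2*. The value of 1 listed gene is not reported here. The 8 genes, the lists and the markers were chosen with earlier results of these data known. Tables used Python 3.11.15, numpy 2.4.6, pandas 2.3.3, scipy 1.17.1 and matplotlib 3.10.9.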

Additional observations from a re-analysis of the deposited data

Results flagged for a closer look

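*Igf2bp3* is listed because its mutants and controls separated in opposite directions in 2 conditions: every mutant was above every control in E11.5 cortex (log2 difference 0.29) and below every control after 12 h of culture (−0.22). A test of the change between these conditions, chosen after the values were seen, gave −0.51 ± 0.15 (SE, unadjusted p = 0.00501, adjusted p = 0.9999 by limma over 13664 genes). These conditions differ in age, title code and culture, which cannot be told apart here.

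*Igf2bp1* and *Igf2bp3* are listed because, from 12 h to 24 h of culture, all 3 mutants moved up and all 3 controls moved down, as 122 of 13359 genes did (0.913%). The mean log2 change of *Igf2bp1* was 0.074 in mutants and −0.14 in controls (difference 0.21, unadjusted p = 0.269, adjusted p = 0.99997 by limma). The mean log2 change of *Igf2bp3* was 0.21 in mutants and −0.14 in controls (difference 0.35, unadjusted p = 0.0641, adjusted p = 0.99997 by limma).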

How the results depend on the processing

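Most results kept their direction and their side of the threshold: of 112 counts of timing genes called under alternatives other than leaving out a library, 106 stayed within 1.5 times, and of 730 single-gene values 713 kept direction and call. The number called with age was 8, and 5 with a mean of at least 50, where 3 genes no longer passed the filter. The number called after 12 h of culture was 1, and 3 at a threshold of 0.1, 2 with quantile normalization, 3 in the fit over 24 libraries and 2 with DESeq2. Leaving out 1 library gave 1 to 2, with 2 without 12 h control 5, without 12 h mutant 6 or without the E14.5 cortex of mutant 6, where *Hmga1* (adjusted p = 0.0224) or *Igf2bp3* (0.0410 and 0.0486) was added. For genotype at 24 h it was 0, and 1 with DESeq2. With the embryo as replicate block the numbers were 1 after 12 h, 0 between 12 h and 24 h and 0 for both changes of the genotype difference, and *Hmga2* after 12 h had a log2 fold change of 0.80 (adjusted p = 0.00429), so the pairing changed no call of these genes, while over all genes it raised the number called between 12 h and 24 h from 39 to 104.

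Some log2 values changed sign. For genotype at E11.5 they were, in fits on whole reads that also left out control D, *Lin28a* with edgeR (−0.046) and *Hmga1* with edgeR (−0.0291) and DESeq2 (−0.0293), and limma without D gave *Lin28a* −0.067 and *Hmga1* 0.0072. At 24 h, with the sex term that leaves mutant 6 alone against the controls, they were *Hmga1* (−0.0029) and *Igf2bp3* (−0.037). With the *Gm42418* term they included *Hmga1* (−0.65). After 12 h with quantile normalization they were *Igf2bp1* (−0.019) and *Igf2bp2* (−0.051), and between 24 h and 12 h *Hmga1* with edgeR (−0.0229) and DESeq2 (−0.0231). When 1 library was left out, sign changes occurred within these ranges: for genotype at E11.5 *Lin28a* −0.067 to 0.65 and *Igf2bp2* −0.21 to 0.013, and after 12 h *Igf2bp2* −0.046 to 0.21. Between 24 h and 12 h they were *Hmga1* −0.20 to 0.27, *Hmga2* −0.18 to 0.051 and *Igf2bp2* −0.14 to 0.059. For the change of the genotype difference from E11.5 to E14.5 they were *Hmga1* −0.10 to 0.41 and *Lin28a* −0.36 to 1.22, and from cortex to 12 h *Hmga1* −0.020 to 1.03. From 12 h to 24 h they were *Hmga1* −0.99 to 0.061, *Hmga2* −0.51 to 0.00081, *Igf2bp2* −0.0072 to 0.44 and *Lin28b* −0.64 to 0.14. Except for the filter, the cause of these changes was not tested.

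Depth limits *Lin28a* and *Trim71* after E11.5 most. Embryo sex followed genotype in part at E14.5: with a sex term the log2 difference of *Hmga2* was 0.93 in E14.5 cortex, 0.62 at 12 h and 0.30 at 24 h, and that of *Lin28b* was 0.76 at 12 h and 1.76 at 24 h. Mutants 1 and 2 were the only females among these embryos. The sex-term values therefore set mutant 6 alone against the male controls and are not sex-adjusted means of all mutants.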

Other observations

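Some of the few reads of the earliest timing genes after E11.5 gathered in 1 embryo, a pattern seen only after the values were read. Mutant 1 held 7 of the 9 *Lin28a* reads of the E14.5 cortices. For *Trim71* the 17 reads of the E14.5 cortices were spread over all 6 embryos, with 3, 3 and 2 in mutants and 2, 4 and 3 in controls. In culture mutant 1 had 6 *Trim71* reads after 12 h and 14 after 24 h (normalized read counts 5.85 and 10.03), while mutants 2 and 6 had none in either culture and the 3 controls had 2 reads between them at 12 h and none at 24 h. With 1 embryo, this has no replicate check and was not tested.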
